A study of Mus musculus with 3 samples.

Results

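The monocyte-attracting chemokines Ccl2, Ccl7, Ccl8 and Ccl12, the related ligand Ccl24 and the receptor Ccr2 were followed across the immune and skin cells of mouse dorsal skin after ultraviolet B (UVB) irradiation. The 6 genes were taken by symbol from the 32285 genes of the deposited count matrices, a rule that uses names and no measured level. The members were nevertheless chosen with earlier results of these data known, so counts of them past a threshold are no test of the set. In macrophages, Ccl2, Ccl7 and Ccl12 stood lowest in unirradiated wild-type skin, intermediate in irradiated wild-type skin and highest in irradiated skin that overexpressed Cox-2, while Ccl8, the most abundant of the 6, ran in the opposite order. Ccr2 was lowest in the irradiated Cox-2 library in macrophages and in monocytes. Each condition was a single library, so no difference below has a replicate check.

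Chemokines of the CC family are small secreted proteins that guide leukocytes along a concentration gradient by binding receptors that couple to G proteins. Ccl2 (MCP-1), Ccl7 (MCP-3) and Ccl12 (MCP-5) are agonists of Ccr2, the receptor through which inflammatory monocytes leave the bone marrow and enter injured tissue. Mouse Ccl8 signals mainly through the receptor Ccr8, found on subsets of T cells, and Ccl24 (eotaxin-2) signals through Ccr3, found on eosinophils. In skin, resident macrophages are a known source of these ligands, and monocytes lose Ccr2 as they mature into macrophages.

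All 3 libraries came from dorsal skin of male C57Bl/6 mice aged 8 weeks, in the resting (telogen) phase of the hair cycle. WTctrl was wild type without UVB, WTUV was wild type with 3 exposures given on alternate days, and RPUV received the same exposures in the RP genotype. In RP mice (Rosa26-rtTA; Tre-Ptgs2) doxycycline switches on rat Ptgs2, the gene for the prostaglandin synthase Cox-2, and since the Rosa26 promoter drives the rtTA activator the overexpression was not limited to a cell type. Each library came from 1 mouse. No unirradiated RP library was analysed here, and the effect of the genotype without UVB cannot be read from these samples. Skin was digested and enriched for CD45+ cells on magnetic beads before 10x Genomics 3′ sequencing.

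After filtering, 5309 cells remained in WTctrl, 5225 in WTUV and 6070 in RPUV. WTUV was sequenced more deeply, with a median of 10557 unique molecular identifiers (UMIs) per cell against 4246 in WTctrl and 3774 in RPUV. By their labels WTctrl and RPUV shared a flow cell and WTUV was on another, so that run and group cannot be told apart in any comparison with WTUV, and RPUV over WTctrl, within a run, differs in both UVB and genotype. Levels are given as CPM, the UMIs of a gene per 1000000 UMIs of the same cells. Ptgs2, as counted on the mouse genome, stood at 14.4, 117 and 486 CPM over all kept cells of WTctrl, WTUV and RPUV. Pairs of libraries shared 7 to 9 cell barcodes, at most 0.17% of a library's cells. A UMI counts a captured 3′ end whatever the transcript's length, and the intervals in brackets are 95% intervals that cover counting error only.

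Genes of the family lie close together. In the mouse build GRCm38.p6 (RefSeq), Ccl2 (chr11:82035577-82037452), Ccl7 (chr11:82045712-82047525), Ccl12 (chr11:82101845-82103399) and Ccl8 (chr11:82115185-82116799) fell within 81.2 kb of chromosome 11, with Ccl11 between Ccl7 and Ccl12. Ccl24 lay on chromosome 5 (chr5:135569935-135573123) and Ccr2 on chromosome 9 (chr9:124101918-124109140). Ccl12 and Ccl8 are separated by 11.8 kb, and their levels in macrophages differed in opposite directions between these libraries, so the 250 bases before each start are printed for comparison (RefSeq, GRCm38.p6, plus strand, chr11:82101595-82101844 and chr11:82114935-82115184). Capitals mark TATAAA, the letters of a TATA box.
Ccl12: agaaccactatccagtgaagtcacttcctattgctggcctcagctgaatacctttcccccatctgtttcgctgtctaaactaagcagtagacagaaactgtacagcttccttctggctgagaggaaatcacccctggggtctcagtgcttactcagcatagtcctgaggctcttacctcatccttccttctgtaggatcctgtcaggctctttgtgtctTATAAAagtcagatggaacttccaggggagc
Ccl8: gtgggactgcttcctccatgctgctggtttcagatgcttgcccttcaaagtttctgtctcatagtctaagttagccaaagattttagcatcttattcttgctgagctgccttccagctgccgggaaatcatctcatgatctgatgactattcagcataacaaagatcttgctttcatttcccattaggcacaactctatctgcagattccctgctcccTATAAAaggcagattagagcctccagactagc
TATAAA stood 31 to 26 bases before the start of Ccl12 and 32 to 27 bases before that of Ccl8, and 12.4% of 32851 windows of this kind held it on either strand. Neither held TGANTCA (AP-1 type, in 6.75% of windows) on either strand. These matches describe letters and say nothing of binding. Of the 6 genes, 3 matched an entry of the promoter table (Ccl8, Ccl12 and Ccr2).

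Cells were sorted into classes by clustering without the 6 genes and naming clusters from marker lists. Of 44 clusters, 10 were named macrophage and 4 stayed unnamed. The macrophage class held 1982, 2221 and 2357 cells in WTctrl, WTUV and RPUV, and the monocyte class 90, 244 and 106. All 8 macrophage markers were detected in macrophages of each library, at a summed 17096, 15044 and 21411 CPM, against 4081, 4395 and 7567 in monocytes. The 8 monocyte markers summed to 2584, 1828 and 3184 in monocytes and to 148, 153 and 419 in macrophages.

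Macrophages carried most of the family's ligand transcripts. They held 89.5%, 92.1% and 91.9% of all Ccl7 UMIs of WTctrl, WTUV and RPUV, 96.6%, 98.2% and 95.5% of those of Ccl8, 95.9%, 95.1% and 94.2% of those of Ccl12 and 92%, 92.6% and 92.9% of those of Ccl24. The share was smaller for Ccl2, at 69.6%, 82.1% and 84.3%, and keratinocytes held 12.1% of its UMIs in WTctrl. Those keratinocyte UMIs numbered 132, from 26 of 1244 cells, with 63 in a single cell. Ccr2 was spread more widely, with 54.6%, 50.2% and 58.7% in macrophages, 18.7%, 17.6% and 16.9% in type 2 dendritic cells and 11.1%, 14.3% and 11.9% in monocytes. Shares of this kind depend on how many cells of each class a library holds, so levels within a class follow.

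**Figure D1:**
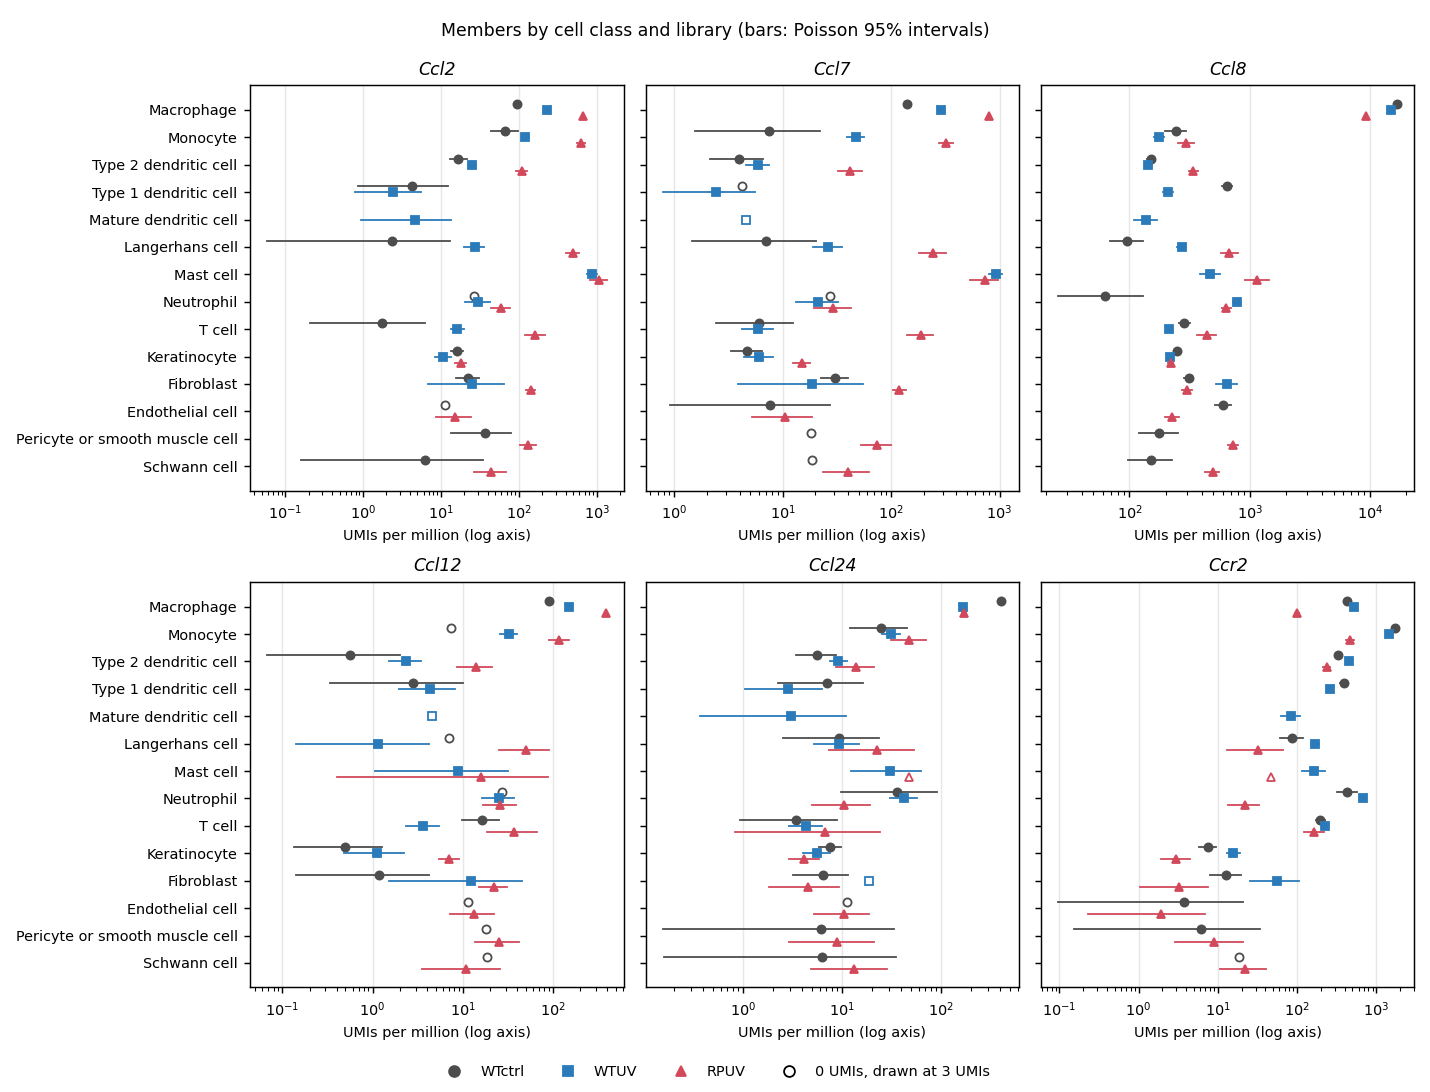
Level of each gene (x axis, CPM, log axis) in each cell class (y axis) of WTctrl (grey circles), WTUV (blue squares) and RPUV (red triangles), with Poisson 95% intervals; open symbols are classes with 0 UMIs drawn at 3 UMIs, and classes under 20 cells or 50000 UMIs are left out. Ccl8, Ccl12 and Ccl24 are highest in macrophages of each library, Ccl2 is highest in mast cells of WTUV and RPUV, and Ccr2 is highest in monocytes.

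The first ligand, Ccl2, is the best known attractant of monocytes. In macrophages it stood at 94.5 CPM (87.9 to 101) in WTctrl, 233 (227 to 239) in WTUV and 660 (646 to 675) in RPUV. The 3 intervals do not overlap, and RPUV over WTctrl, within a run, gave a ratio of 6.99 (6.49 to 7.54).

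Ccl7 shares receptors with Ccl2 and also binds Ccr1 and Ccr3. Its levels in macrophages were 139 (131 to 147), 290 (284 to 297) and 801 (786 to 817) CPM in WTctrl, WTUV and RPUV, the same order as Ccl2. The ratio was 2.09 (1.97 to 2.23) for WTUV over WTctrl, 2.76 (2.68 to 2.84) for RPUV over WTUV and 5.78 (5.44 to 6.16) for RPUV over WTctrl.

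Ccl12, a mouse ligand of Ccr2, stood at 91 (84.5 to 97.8), 152 (148 to 157) and 386 (375 to 397) CPM. WTUV was 1.67 times WTctrl (1.55 to 1.81), under the 2-fold size that was used to count a gene as past threshold. RPUV was 2.53 times WTUV (2.43 to 2.64) and 4.24 times WTctrl (3.92 to 4.59).

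Ccl8 was the most abundant of the 6 genes in macrophages, at 16884 (16795 to 16974), 14996 (14951 to 15041) and 9228 (9174 to 9281) CPM. In summed UMIs WTUV was slightly lower than WTctrl, at a ratio of 0.888 (0.883 to 0.894). That ratio depended on the processing. It was 0.716 with cells thinned to 2000 UMIs, 0.69 with a limit of 4000 genes in every library and 0.769 as a mean over cells. RPUV was lower by a factor of 1.63 than WTUV (ratio 0.615, 0.611 to 0.619) and by a factor of 1.83 than WTctrl (ratio 0.547, 0.542 to 0.551). For every 100 UMIs of Ccl8, macrophages held 0.56 UMIs of Ccl2 in WTctrl, 1.55 in WTUV and 7.16 in RPUV.

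Ccl24, the eosinophil attractant, separated WTctrl from both irradiated libraries. It stood at 403 (389 to 417) CPM in WTctrl, 168 (163 to 172) in WTUV and 170 (163 to 178) in RPUV. It was lower than WTctrl by factors of 2.4 in WTUV and 2.37 in RPUV, and RPUV over WTUV was 1.02 (0.965 to 1.07). That last ratio depended on the processing: on the log2 scale it was 0.02, against -0.39 (-0.47 to -0.31) when WTUV cells were also held under 4000 genes, and -0.24 (-0.32 to -0.16) without integration.

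The receptor Ccr2 stood at 423 (409 to 438) CPM in macrophages of WTctrl, 522 (514 to 531) in WTUV and 101 (95.7 to 107) in RPUV. WTUV was slightly higher than WTctrl, at a ratio of 1.23 (1.19 to 1.28), and RPUV was lower than WTctrl by a factor of 4.18 (ratio 0.239, 0.224 to 0.255). RPUV macrophages thus held the highest Ccl2, Ccl7 and Ccl12 and the lowest Ccr2 of the 3 libraries.

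**Figure D2:**
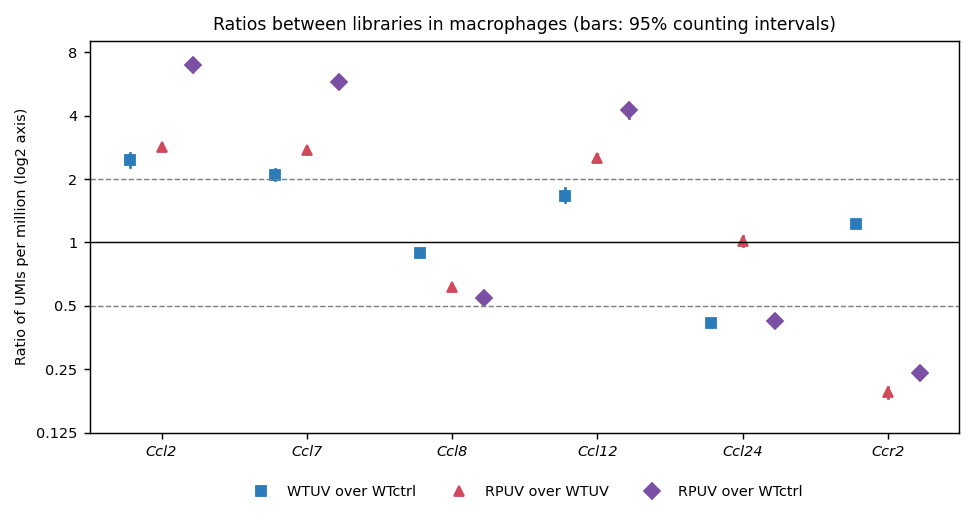
Ratio of CPM in macrophages (y axis, log2 axis) for each gene (x axis) in WTUV over WTctrl, RPUV over WTUV and RPUV over WTctrl, with 95% counting intervals as bars. Ccl2, Ccl7 and Ccl12 lie above 1 in each comparison, Ccl8 lies below 1 in each, and Ccr2 is at 0.194 for RPUV over WTUV.

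In numbers, 3 of the 6 genes were past 2-fold in macrophages of WTUV over WTctrl (Ccl2 and Ccl7 higher, Ccl24 lower), where 11.4% of the 13771 genes tested were, 7.13% higher and 4.28% lower. In RPUV over WTUV 4 were (Ccl2, Ccl7 and Ccl12 higher, Ccr2 lower), against 14.7% of 14010 genes, 5.22% higher and 9.45% lower. In RPUV over WTctrl 5 were (Ccl2, Ccl7 and Ccl12 higher, Ccl24 and Ccr2 lower), against 16.6% of 12901 genes, 7.67% higher and 8.96% lower. Among genes at 50 CPM or more in either library the background was 3.42%, 4.06% and 8.95%. The median log2 ratio over all genes tested lay between -0.07 and 0.05. Thinning each cell to 2000 UMIs, or taking the mean over cells, left 1 gene (Ccl2) past 2-fold in WTUV over WTctrl.

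Other cells' markers also differed between these macrophages. The 7 neutrophil markers summed to 120, 106 and 419 CPM in macrophages of WTctrl, WTUV and RPUV, with S100a8 at 0, 2.65 and 132, and the 4 red blood cell markers to 0.996, 0.322 and 131. Levels of the 6 genes in RPUV neutrophils were 58.6 for Ccl2, 29.3 for Ccl7, 641 for Ccl8, 26.2 for Ccl12, 10.5 for Ccl24 and 22 for Ccr2, each below the macrophage level of the same library. The part of these markers in the differences was not tested.

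Lyve1, a hyaluronan receptor, marks perivascular resident macrophages of the skin, and macrophages were divided by it. Those with 0 Lyve1 UMIs numbered 1489, 1676 and 1416 in WTctrl, WTUV and RPUV, and those with 2 or more numbered 319, 376 and 636 (16.1%, 16.9% and 27% of macrophages). Because a deeper library finds more Lyve1 UMIs per cell, the division was repeated after thinning each cell to 2000 UMIs, which left 1358, 1867 and 1464 cells with 0 and 174, 114 and 310 with 2 or more.

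Ccr2 separated the Lyve1 groups in each library. It stood at 66.4, 92.9 and 24.8 CPM in cells with 2 or more Lyve1 UMIs of WTctrl, WTUV and RPUV, and at 530, 670 and 149 in cells with 0. The group with Lyve1 was lower by factors of 7.98, 7.21 and 6. These factors moved with the processing: the ratio with Lyve1 over without was 0.285 in WTctrl without integration, and in WTUV it was 0.139 as reported and 0.0665 without the top 5% of doublet scores. Ccl24 was the reverse, at 702, 345 and 220 with Lyve1 and 315, 117 and 140 without, for ratios of 2.23, 2.96 and 1.58.

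In WTctrl, 5 of the 6 genes were past 2-fold between the Lyve1 groups (Ccl24 higher with Lyve1, and Ccl7, Ccl8, Ccl12 and Ccr2 lower), where 12% of all genes tested were. Only Ccl24 and Ccr2 were in WTUV, against 13.9%, and only Ccr2 in RPUV, against 9.79%. Ccl12 with Lyve1 over without was 0.291 in WTctrl, 1.31 in WTUV and 0.979 in RPUV, and Ccl7 was 0.498, 0.807 and 0.664. The log2 ratio of Ccl12 in WTUV, 0.39, turned to -0.75 (-1.50 to -0.09) with thinned cells and to -0.01 without integration, and the ratio of Ccl7 in WTctrl went down to 0.209. The WTctrl count was 3 (Ccl12, Ccl24 and Ccr2) when cells with 1 Lyve1 UMI joined the Lyve1 group.

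The values for Ccl8 differed with and without thinning. Without thinning it stood at 18841, 13456 and 8618 CPM in cells with 0 Lyve1 UMIs of WTctrl, WTUV and RPUV, and at 8443, 18559 and 9293 in cells with 2 or more, so that WTUV over WTctrl was 0.714 in the former and 2.2 in the latter. At equal depth it was 19947, 13378 and 8594 with 0 Lyve1 UMIs and 7241, 6579 and 5644 with 2 or more, lower in the Lyve1 group of each library. WTUV over WTctrl was then 0.671 (0.663 to 0.679) and 0.909 (0.852 to 0.969), and RPUV over WTUV 0.642 (0.633 to 0.652) and 0.858 (0.807 to 0.912), below 1 in both groups.

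At equal depth, Ccl2 in cells with 2 or more Lyve1 UMIs stood at 63.2, 246 and 500 CPM in WTctrl, WTUV and RPUV, against 100, 238 and 700 with 0. Ccl7 was at 34.5, 232 and 511 against 165, 291 and 846, and Ccl12 at 31.6, 83.3 and 273 against 117, 140 and 360. All 3 ligands ran in the same order of libraries in both Lyve1 groups. For Ccl12, WTUV over WTctrl was 2.64 (1.19 to 6.13) with Lyve1 and 1.2 (1.04 to 1.39) without. With Lyve1, Ccl12 rests on 11 UMIs in WTctrl and 19 in WTUV, and Ccl7 on 12 in WTctrl. Ccl24 at equal depth was 759, 689 and 285 with Lyve1 against 355, 174 and 167 without, so that WTUV over WTctrl was 0.908 (0.74 to 1.11) with Lyve1 and 0.491 (0.444 to 0.543) without, and RPUV over WTUV was 0.415 (0.333 to 0.517) with Lyve1 and 0.961 (0.853 to 1.08) without. Whether these ratios differ between the Lyve1 groups beyond the spread between animals cannot be tested with 1 library per condition.

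Between the libraries, the unthinned Lyve1 groups gave counts past 2-fold of 2 (0 Lyve1 UMIs) and 5 (2 or more) for WTUV over WTctrl, where 11.9% and 10.5% of all genes were, of 4 and 4 for RPUV over WTUV (14% and 12.2%), and of 6 and 5 for RPUV over WTctrl (17.1% and 15.5%). The 5 with Lyve1 in WTUV over WTctrl were Ccl2, Ccl7, Ccl8 and Ccl12 (higher) and Ccl24 (lower). At equal depth Ccl8 (0.909) and Ccl24 (0.908) were within 2-fold there, and Ccr2 was at 2.4 (1.17 to 5.07). Ccl2, Ccl7 and Ccl12 were higher and Ccr2 lower in RPUV over WTUV in both groups.

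**Figure D3:**
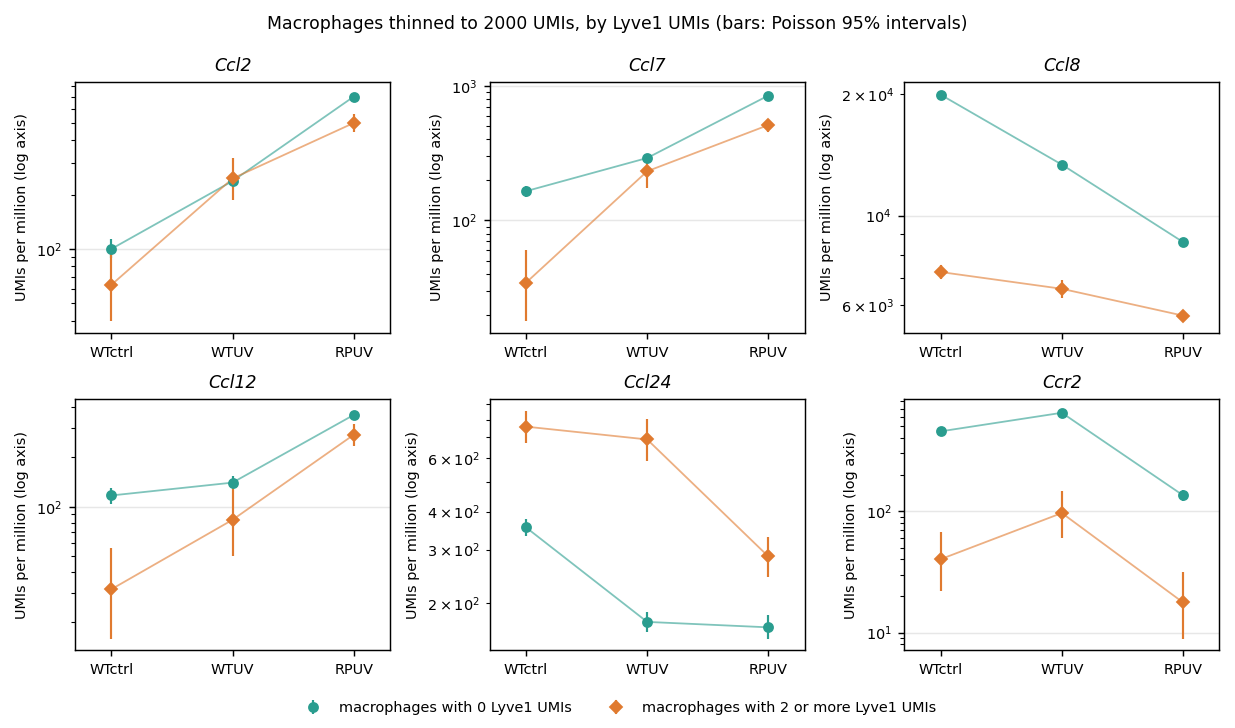
Level of each gene (y axis, CPM, log axis) in WTctrl, WTUV and RPUV (x axis) in macrophages thinned to 2000 UMIs, with 0 Lyve1 UMIs (green circles) or 2 or more (orange diamonds); bars are Poisson 95% intervals and lines join the libraries of a group. Ccl8 descends from WTctrl to RPUV in both groups, and Ccr2 is lower in the Lyve1 group of each library.

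The 10 macrophage clusters, which were made without these genes, showed how far each difference held within macrophages. Between RPUV and WTUV, Ccl2 was higher in 10 of 10 clusters, at ratios from 1.65 to 5.54, Ccl7 in 10 (1.6 to 7.58) and Ccl12 in 10 (1.65 to 6.05). Ccr2 was lower in 10 of 10, at ratios from 0.0453 to 0.462, and Ccl8 in 9 of 10, the exception being cluster 6, where it stood at 855 CPM in WTUV and 2368 in RPUV. Between WTUV and WTctrl, Ccl24 was lower in 10 of 10 clusters (0.156 to 0.974), Ccl2 was higher in 8, Ccl7 in 8 and Ccl12 in 6, and Ccl8 was lower in 7. Cells of a library are not replicates, and these counts describe where in the macrophages a difference lay.

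A single cluster was the lowest for Ccl7, Ccl8 and Ccl12 in each library. Cluster 10, led by Retnla, Lyz1 and Fn1 and with type 2 dendritic cell markers as its second list, made up 12.3%, 9.1% and 4.37% of macrophages in WTctrl, WTUV and RPUV. It held the lowest Ccl7 (2.08, 37.9 and 288 CPM), the lowest Ccl8 (321, 310 and 166) and the lowest Ccl12 (1.38, 5.5 and 33.3) of the clusters in each library. Its Ccr2 was 1415, 1134 and 523, the highest of the clusters in WTctrl and RPUV, while cluster 6 was highest in WTUV at 1326. In cluster 10 Lyve1 was at 0, 5.5 and 28.9 CPM. The part of this cluster in the Ccr2 difference between Lyve1 groups was not tested. Its Ccl2, at 53.3, 146 and 538, was within the range of the other clusters. Ccl8 was highest in cluster 2 of each library, at 36937, 30110 and 19166. After cluster 10 it was next lowest in cluster 6, at 6303, 855 and 2368.

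**Figure D4:**
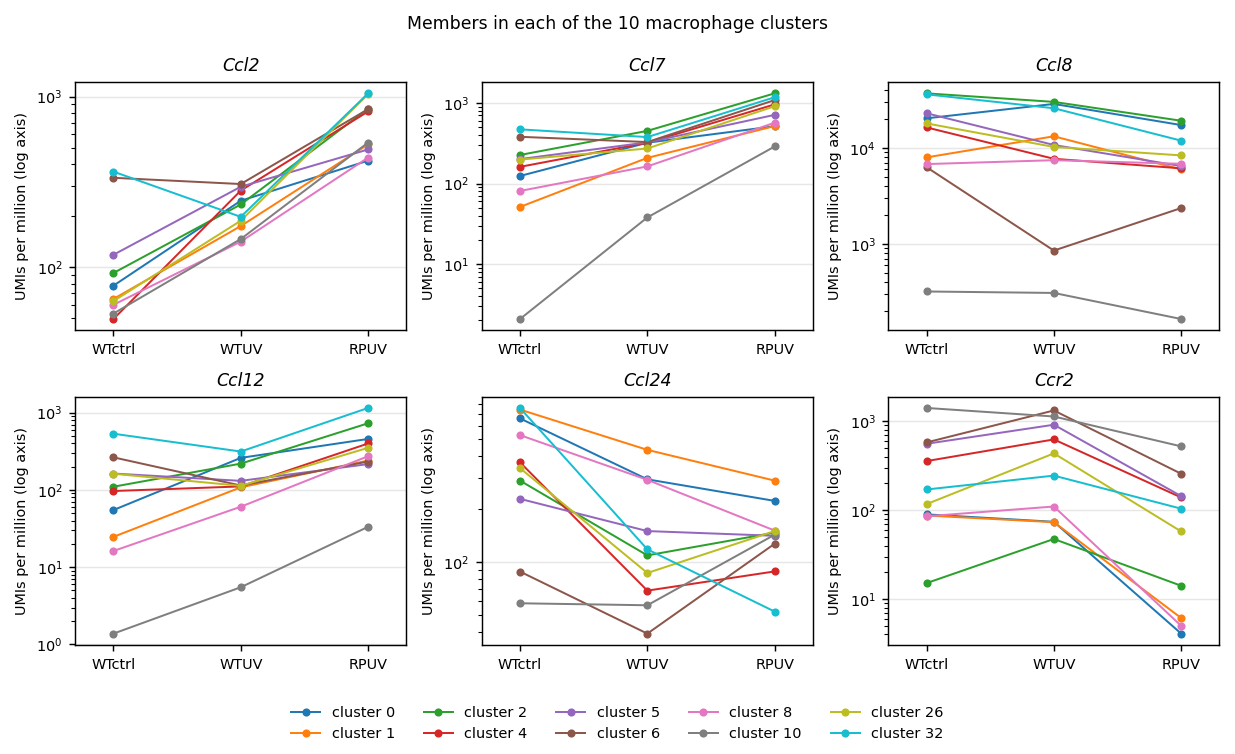
Level of each gene (y axis, CPM, log axis) in WTctrl, WTUV and RPUV (x axis) in each of the 10 macrophage clusters, 1 line per cluster. Lines for Ccl2, Ccl7 and Ccl12 all ascend from WTUV to RPUV and lines for Ccr2 all descend, and cluster 10 (grey) lies below the others for Ccl7, Ccl8 and Ccl12.

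The clusters took different shares of the macrophages in each library. When each cluster was weighted by its share of macrophage UMIs in WTctrl, a setting added after the data were seen, the ratios for Ccl2, Ccl7 and Ccl12 stayed within 1.5 times those above, and Ccr2 in RPUV over WTUV was 0.297 in place of 0.194. Without the macrophage clusters that scored near a second marker list, also added later, Ccr2 in WTUV over WTctrl was 2.07 in place of 1.23. Ccr2 in RPUV over WTctrl was then 0.368 in place of 0.239, and 0.332 with the fixed cluster weights. Cluster 10 held 2044 of 3402, 4123 of 14568 and 362 of 1243 macrophage Ccr2 UMIs in WTctrl, WTUV and RPUV.

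A summed level can come from few or many cells, so the share of cells with a UMI was read after thinning each cell to 2000 UMIs. Macrophages with a Ccl7 UMI made up 16.2% (14.5 to 18) of WTctrl, 29.7% (27.8 to 31.6) of WTUV and 45.8% (43.7 to 48) of RPUV, and those with Ccl12 10.1%, 15.6% and 27.5%. Ccl2 was found in 12.7%, 26.6% and 48.3%, Ccl24 in 41.7%, 24.2% and 25.8%, and Ccr2 in 25.6%, 35.7% and 11.2%. Unthinned shares were 23.3%, 57% and 59.4% for Ccl7, 13.2%, 37.7% and 39.7% for Ccl12, 53.8%, 48.3% and 40% for Ccl24 and 28.1%, 43.5% and 16% for Ccr2, at median depths of 3854, 11288 and 4622 UMIs per macrophage. For Ccl2 the unthinned shares were 19.8%, 56.7% and 61.9%.

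Keratinocytes, epithelial cells that should lack Ccr2, were taken as the background class (median 6178, 9650 and 5996 UMIs). Their thinned shares were 0.996%, 0.946% and 2.6% for Ccl7, 0%, 0.236% and 0.903% for Ccl12, 1.27%, 0.946% and 1.13% for Ccl24 and 0.815%, 1.42% and 0.339% for Ccr2, all below the macrophage shares of the same library. For Ccl2 they were 0.996%, 1.65% and 2.71%, also below the macrophage shares. For Ccl12, 0 of 1104 WTctrl keratinocytes allows a share of cells with a UMI of up to 0.272% (a floor of 3 cells), and the Wilson upper limit is 0.347%. Ccl8 was found in 81.8%, 73.6% and 84% of macrophages but also in 13.9%, 27.7% and 25.7% of keratinocytes, and its shares in monocytes (19%, 22.6% and 24.2%) were near those of keratinocytes. In RPUV its level was 296 CPM (252 to 345) in monocytes and 221 (211 to 231) in keratinocytes. Whether monocytes hold Ccl8 beyond background was not tested. Unthinned, keratinocyte shares were 30.5%, 67.5% and 59.5% for Ccl8 and 1.69%, 4.61% and 0.861% for Ccr2.

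**Figure D5:**
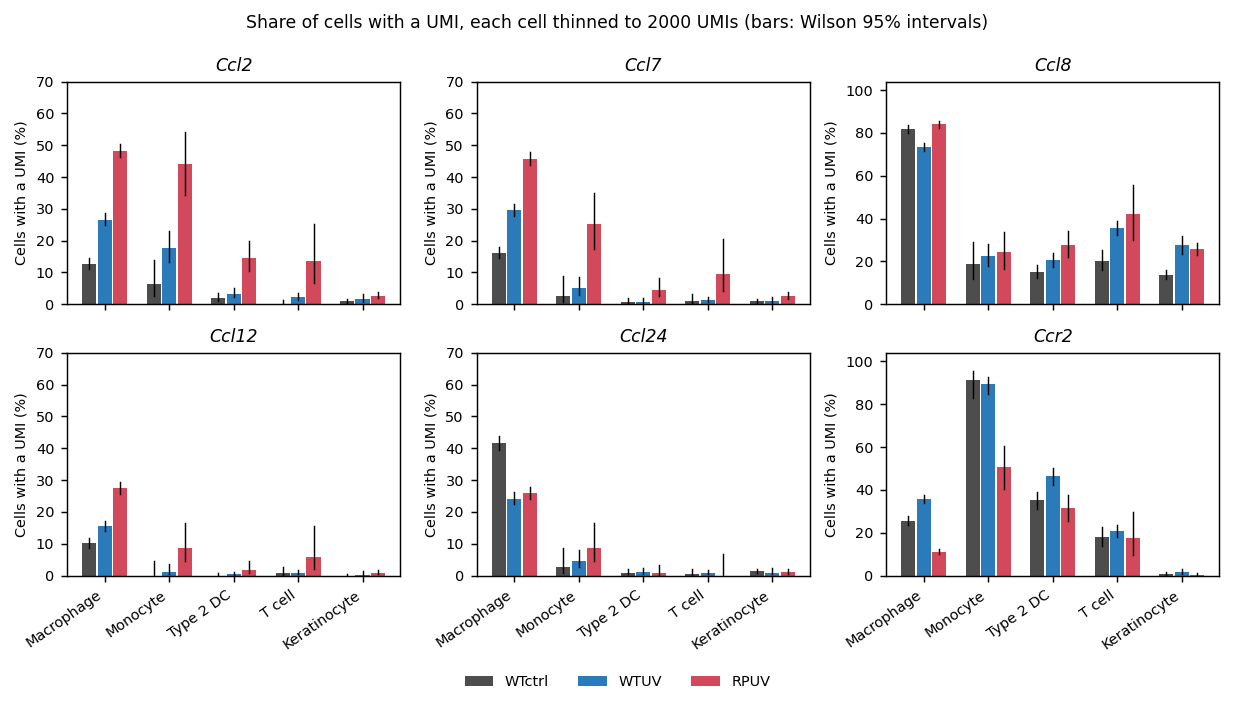
Share of cells with at least 1 UMI of each gene (y axis, percent) in 5 cell classes (x axis) of WTctrl (grey), WTUV (blue) and RPUV (red), after each cell was thinned to 2000 UMIs; lines are Wilson 95% intervals. Ccr2 is found in 91.1%, 89.5% and 50.5% of monocytes, and Ccl8 is found in a part of every class.

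The median thinned macrophage held 23 UMIs of Ccl8 in WTctrl, 9 in WTUV and 9 in RPUV, and 0 UMIs of each of the other 5 genes in every library.

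Within macrophages the ligands of Ccr2 were found together. Ccl7 was present in 32.4%, 50% and 65.2% of thinned macrophages with a Ccl2 UMI and in 13.9%, 22.3% and 27.8% of those without, in WTctrl, WTUV and RPUV. Ccl12 was present in 18.3%, 22.1% and 36.7% of macrophages with Ccl2 and in 8.94%, 13.2% and 18.9% without.

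Ccl8 was less often found in cells with the receptor. Ccl8 was present in 44%, 41% and 52.1% of macrophages with a Ccr2 UMI and in 94.8%, 91.7% and 88% of those without. Ccl24 showed the same pattern at 19.5%, 11.6% and 15% with Ccr2 against 49.3%, 31.2% and 27.1% without. Ccl2 was present in 12.3%, 26.5% and 50.9% of cells with Ccr2 and in 12.8%, 26.7% and 48% of those without, and the intervals overlap in each library.

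Monocytes, the class with the highest Ccr2 level in each library, held it at 1724 (1598 to 1857), 1461 (1417 to 1506) and 468 (412 to 529) CPM in WTctrl, WTUV and RPUV. RPUV was lower than WTUV by a factor of 3.12 (ratio 0.32, 0.281 to 0.364) and lower than WTctrl by a factor of 3.69. In each library monocytes exceeded macrophages, by 4.07, 2.8 and 4.62 times. Cells with a Ccr2 UMI at 2000 UMIs per cell made up 91.1% (82.8 to 95.6) of WTctrl monocytes, 89.5% (85 to 92.8) of WTUV and 50.5% (40.5 to 60.6) of RPUV monocytes (unthinned 93.3%, 98.8% and 65.1%).

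Monocytes also held the ligands. Ccl2 stood at 67.4 (44.4 to 98), 122 (110 to 136) and 629 (564 to 699) CPM, and in RPUV monocytes over macrophages gave 0.952 (0.852 to 1.06), an interval that spans 1. Ccl7 was at 7.48, 47 and 324, 6.88 times higher in RPUV than in WTUV (5.46 to 8.68), and below macrophages of the same library. Ccl12 was at 0, 32.3 and 118. Against a floor of 3 UMIs in the WTctrl library this gives 4.31-fold in WTUV and 15.8-fold in RPUV, figures that leave out counting error. The 92 UMIs of WTUV came from 13 of 244 cells, with 36 in a single cell. Ccl24 was at 24.9, 31.6 and 48.1, with a ratio of 1.52 (0.944 to 2.38) for RPUV over WTUV.

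Past 2-fold in monocytes were 2 of the 6 genes for WTUV over WTctrl (Ccl7 and Ccl12 higher), where 17.3% of all genes were, and 4 for RPUV over WTUV and for RPUV over WTctrl (Ccl2, Ccl7 and Ccl12 higher, Ccr2 lower), where 19% and 24.3% were. The monocyte class held few cells, and the 7 neutrophil markers summed there to 54.9, 69.1 and 1895 CPM, a difference whose part in these values was not tested.

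Mast cells, few in number (30, 92 and 40 cells), carried Ccl2 at 862 (589 to 1216), 874 (757 to 1005) and 1064 (825 to 1351) CPM. Unlike in macrophages, these levels did not differ beyond counting error, with ratios of 1.01 (0.696 to 1.52) for WTUV over WTctrl and 1.22 (0.909 to 1.61) for RPUV over WTUV. The WTctrl value rests on 32 UMIs. Mast cells exceeded macrophages in Ccl2 by 9.12, 3.75 and 1.61 times. Ccl7 in mast cells was at 108 (29.3 to 276), 923 (802 to 1057) and 731 (535 to 974), so that WTctrl was apart from both irradiated libraries, on 4 UMIs in 30 cells.

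In RPUV, Ccl2 and Ccl7 were also found at higher levels in classes where they were scarce in the wild-type libraries. Ccl2 in Langerhans cells, the dendritic-like cells of the epidermis, stood at 2.33, 27.2 and 490 CPM in WTctrl, WTUV and RPUV, but the 107 UMIs of RPUV came from 6 of 38 cells. In T cells it was at 1.73, 16.3 and 164, with 48 UMIs in 12 of 98 cells, and in fibroblasts at 22.1, 25 and 142. The fibroblast values rest on 4 UMIs in WTUV, and 64 of the 218 UMIs of RPUV came from a single cell. Ccl7 in fibroblasts was at 30.3, 18.8 and 119, and in type 2 dendritic cells at 3.93, 5.93 and 42. Its WTUV fibroblast value rests on 3 UMIs in 51 cells (3.87 to 54.8). Keratinocytes were at 16.2, 10.6 and 18 for Ccl2, with 63 of the 132 WTctrl UMIs in a single cell.

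The ratio of Ccl2 to Ccl8 differed between classes. Against 7.16 Ccl2 UMIs per 100 Ccl8 UMIs in RPUV macrophages, keratinocytes held 8.16, neutrophils 9.15 and endothelial cells 6.75, while monocytes held 212, mast cells 91.8, Langerhans cells 72.3, fibroblasts 47.1 and T cells 37.2. In WTctrl the ratio was 0.56 in macrophages but 6.48 in keratinocytes and 7.12 in fibroblasts, and in WTUV 1.55, 4.89 and 3.88. The WTctrl keratinocyte value rests on 132 Ccl2 UMIs, 63 of them in a single cell. The fibroblast values rest on 38 Ccl2 UMIs in WTctrl and 4 in WTUV. Ccl8 in RPUV monocytes, mast cells, Langerhans cells, fibroblasts and T cells was at 296, 1159, 678, 301 and 440 CPM. The part of free RNA in these values was not tested.

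Outside monocytes and macrophages, Ccr2 was found in type 2 dendritic cells at 327 (309 to 347), 458 (446 to 471) and 239 (215 to 265) CPM, in neutrophils at 432, 690 and 22 and in T cells at 197, 226 and 164. RPUV over WTUV was 0.522 (0.468 to 0.581) in type 2 dendritic cells, 0.0319 (0.0196 to 0.0491) in neutrophils and 0.725 (0.532 to 0.967) in T cells, below 1 in each. The neutrophil class held 25, 103 and 564 cells, and its 48, 715 and 21 Ccr2 UMIs came from 9, 49 and 5 of them. In descending order of Ccr2 in WTctrl, monocytes were followed by neutrophils (319 to 573), macrophages (409 to 438) and type 1 dendritic cells (353 to 447), whose intervals overlap, and then by type 2 dendritic cells and T cells (172 to 224). In RPUV the order was monocytes, type 2 dendritic cells (215 to 265), T cells (121 to 217) and macrophages, and the intervals of the dendritic and T cells overlap.

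Ccl24 outside macrophages reached 1159 CPM in mature dendritic cells of WTctrl, but its 146 UMIs came from 3 of 18 cells. Elsewhere it stayed under 50 CPM in every class with at least 20 cells and 50000 UMIs.

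Across 35 points, each a cell class in 1 library with at least 20 cells and 50000 UMIs, the genes whose levels ran most like each of the 6 were found by Pearson's r of log2(CPM + 10) over 11690 genes. Classes of a library share its depth and free RNA, and the r is a description. Ccl2 and Ccl7 were each other's nearest gene, at 0.94, and Blvrb came next for both, at 0.81 and 0.88. Ccl8 ran with Cd209g (0.91), Folr2 (0.91) and Cd209f (0.89), a folate receptor and lectins of resident macrophages, and Ccl12 with Pf4 (0.93), Ms4a7 (0.90) and Snx6 (0.89). Ccl24 ran with Tlr7 (0.92), Aoah (0.91) and Pla2g15 (0.89), and Ccr2 with Tifab (0.92), Ms4a4c (0.90) and Ly86 (0.90). With a pseudocount of 1, from 1 (Ccl2) to 3 (Ccl7) of the 3 nearest genes were retained.

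Other CC ligands differed in both directions. Of 16 other CC ligands, 12 could be tested in macrophages of WTUV over WTctrl, and 6 were past 2-fold higher and 1 lower, where 7.13% and 4.28% of all genes were (median log2 ratio 0.56, against 0.05 over all genes). Ccl3 and Ccl4, the macrophage inflammatory proteins, were among those higher, at 16.9 against 82.2 and 40.7 against 90.4 CPM. Ccl1, Ccl17, Ccl19 and Ccl22, also higher, had only 0, 5, 6 and 2 UMIs in WTctrl. In RPUV over WTUV, 1 of 12 was past 2-fold higher (Ccl4, 224 against 90.4, ratio 2.48) and 5 were lower, where 5.22% and 9.45% of all genes were, among the 5 Ccl5 (3.42 against 23.7) and the T cell attractant Ccl17 (0.57 against 13.2), for a median of -0.20 against -0.07 over all genes. In RPUV over WTctrl 3 of 10 were higher and 3 lower, against 7.67% and 8.96% (median 0.07).

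Among 13 other CC receptors and scavengers, 4 of 10 tested were past 2-fold higher and 1 lower in macrophages of WTUV over WTctrl (median 0.69), against 7.13% higher and 4.28% lower over all genes. Of those higher, Ccr3 and Ccr7 had only 1 and 0 UMIs in WTctrl. The lower gene, Ackr1, had 6 UMIs in WTUV and 4 in WTctrl. Ccr1, a receptor of Ccl3 and Ccl7, stood at 25.6, 118 and 90.3 CPM in WTctrl, WTUV and RPUV. In RPUV over WTUV 1 of 10 was higher and 5 lower (median -0.74), the 5 with at most 30 UMIs each in WTUV, against 5.22% and 9.45% over all genes. In RPUV over WTctrl 3 of 6 were higher and 1 lower (median 1.0), against 7.67% and 8.96%. In RPUV over WTUV, Ccr2 was lower by a factor of 5.16, while Ccr1 had a ratio of 0.766 (0.715 to 0.82).

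Genes of monocytes also differed in both directions. Of 12 listed, all tested in macrophages, 4 were past 2-fold higher and 1 lower in WTUV over WTctrl (median 0.27), 3 higher and 4 lower in RPUV over WTUV (median -0.26), and 4 higher and 2 lower in RPUV over WTctrl (median 0.05). Over all genes 11.4%, 14.7% and 16.6% were past 2-fold in these comparisons, which also holds as the background of the resident macrophage genes. The chitinase-like gene Chil3 stood at 0.871, 23.6 and 235 CPM and the proteoglycan gene Vcan at 0.747, 22.5 and 24.8, while the fractalkine receptor Cx3cr1 stood at 15.2, 17.8 and 2.28. Of 8 resident macrophage genes, 2 were lower in WTUV over WTctrl (Lyve1 and Timd4; median -0.18), 1 was higher in RPUV over WTUV (Lyve1; median 0.21) and 1 was lower in RPUV over WTctrl (Timd4; median -0.05). Lyve1 stood at 191, 91.1 and 264 CPM and Timd4 at 66.2, 23.6 and 28.8.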

How the data were processed

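Cells were from dorsal skin, enriched for CD45+ cells, in 3 libraries of 1 mouse each. Per the labels and the matrix headers, the authors aligned reads to mm10 with Cell Ranger 6.1.1 and deposited matrices of raw UMI counts, which were used as deposited. The study's filters were applied (mitochondrial UMIs under 10%, over 200 and under 4000 genes, 6000 in WTUV). Kept cells were normalised and integrated with Seurat 5.3.0 and sctransform 0.4.2 (3000 features, 30 dimensions, resolution 2, R 4.3.3) without the 6 genes, and clusters were named from 21 marker lists. Scrublet (scanpy 1.11.5) marked 1.39%, 0.0191% and 0.0165% of cells, too few in WTUV and RPUV to be used, so doublets were kept. UMIs were summed per class and library (libraries held 25795684, 64556621 and 29128981 kept UMIs). Ratios had exact binomial intervals, levels Poisson and shares Wilson intervals (SciPy 1.17.1), and no p-value was computed with 1 library per group. A gene counted as past threshold over 2-fold with 10 UMIs or more over both libraries. The text names the 6 genes, the 3 genes most like each by correlation, and genes of 4 lists (other CC ligands, other CC receptors, monocyte and resident macrophage genes) past 2-fold in macrophages. Members and lists were chosen with earlier results of these data known. Alternatives changed the scaling, filters, thinning, Lyve1 cuts, integration and doublets, and 3 were added after the data were seen: no macrophage clusters near a second marker list, monocytes counted with macrophages, and fixed cluster weights. The count and interval code was checked on simulated data.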

Additional observations from a re-analysis of the deposited data

Results flagged for a closer look

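The macrophage groups divided by Lyve1 gave opposite directions for 3 values, and the difference between the groups was not tested. Ccl8 in WTUV over WTctrl was 2.2 with 2 or more Lyve1 UMIs and 0.714 with 0, and in RPUV over WTctrl it was 1.1 and 0.457. Ccl24 in RPUV over WTUV was 0.638 and 1.2. With cells thinned to 2000 UMIs, Ccl8 was below 1 in both groups (0.909 and 0.671, and 0.779 and 0.431), and Ccl24 was 0.415 and 0.961.

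The barcodes that the filters removed (668 in WTctrl, 924 in WTUV and 1170 in RPUV) also held the 6 genes, in part above the WTctrl level. Ccl2 was at 31.6 CPM in WTUV and 80.5 in RPUV, against 5.33 in WTctrl. Ccl7 was at 18.1 and 66.6 against 4.68, Ccl8 at 1644 and 1179 against 188, and Ccl12 at 14.5 and 61.3 against 1.09. Ccl24 in RPUV was at 16.5 against 5.88, and Ccr2 in WTUV at 156 against 19.8.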

How the results depend on the processing

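For the 36 single ratios, 378 alternative values were computed, of which 208 moved by less than the counting interval, 161 moved further and 9 turned direction, counting as turned only a ratio whose interval as reported excludes 1; by that count 32 of the 36 ratios turned under no alternative. The count of genes past 2-fold in macrophages of WTUV over WTctrl was 1 with cells thinned to 2000 UMIs and 1 with the mean over cells, and the count between Lyve1 groups of WTctrl was 3 with 1 or more Lyve1 UMIs. The turns so counted were between Lyve1 groups, as log2 ratios. In WTUV, Ccl2 was 0.04 thinned, Ccl8 was -0.29 with a limit of 4000 genes in every library, -0.04 without integration and -1.02 thinned, and Ccl12 was -0.01 without integration and -0.75 thinned. In RPUV, Ccl8 was -0.61 thinned, -0.16 as a mean over cells and -0.12 with 3 or more Lyve1 UMIs. The cause of these turns was not tested. Among ratios whose interval spans 1, Ccl24 in macrophages of RPUV over WTUV (0.02) was as low as -0.39, and Ccl12 between Lyve1 groups of RPUV (-0.03) as high as 0.03. In macrophages, Ccl24 in WTUV over WTctrl reached 0.551, Ccl7 reached 1.88, and Ccr2 in RPUV over WTctrl reached 0.438 without integration. Scaling by the median ratio over genes moved values by at most 0.08 on the log2 scale. No paired analysis was possible because each group was 1 library with no test. Few cells limit the monocyte, mast cell and Langerhans values, and mast cells were also shallow (median 912, 1672 and 1096 UMIs).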
